A study of Mus musculus with 6 samples.

Results

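The calcium channel alpha2delta subunits are encoded by 4 genes, Cacna2d1 (ENSMUSG00000040118), Cacna2d2 (ENSMUSG00000010066), Cacna2d3 (ENSMUSG00000021991) and Cacna2d4 (ENSMUSG00000041460). They were picked by symbol from the 32285 genes of the deposited tables, and all 4 were found. Nuclei came from the septal area of wild type mice, a forebrain region between the lateral ventricles, and 6 samples form 1 group. No treatment or other genotype was part of the series, and the labels give neither age nor sex nor the number of animals. No label says that the samples are separate animals, so the spread behind each p-value is that between libraries and may be technical.

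Voltage-gated calcium channels open when a neuron depolarises, and the calcium that enters triggers transmitter release and changes in gene activity. Each channel has a pore-forming alpha1 subunit, and the high-voltage-activated channels add an intracellular beta subunit and an alpha2delta subunit, a glycoprotein on the outer face of the membrane. Alpha2delta proteins raise the number of channels at the surface and at presynaptic sites, and they also take part in synapse formation. The products of Cacna2d1 and Cacna2d2 bind the drugs gabapentin and pregabalin. Cacna2d1 protein is also a receptor for thrombospondins, Cacna2d2 is the gene mutated in the ataxic ducky mouse, Cacna2d3 is known from pain and hearing, and Cacna2d4 is known chiefly from photoreceptors.

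The samples held 7393 to 11134 barcodes and 70183544 to 95175260 unique molecular identifiers (UMIs, counts of single RNA molecules). Keeping barcodes with no fewer than 500 detected genes left 54623 nuclei, and the samples' median depth was 5175 to 6863 UMIs. Barcode sharing between samples reached no more than 0.433% of the smaller sample. Nuclei were put into classes by markers that do not include the 4 genes, which left 13715 nuclei (25.1%) without a class. Neurons numbered 22973, of which 14071 passed as GABAergic and 756 as glutamatergic. GABAergic neurons were divided into 6631 lateral septum-like, 153 medial septum-like, 251 medium spiny-like (the projection neurons of the striatum) and 7036 others. A further 218 nuclei carried cholinergic markers, and 156 of them also lay in a GABAergic or glutamatergic class. The non-neuronal classes were astrocytes (5147 nuclei), oligodendrocytes (6051), oligodendrocyte precursors (1470), microglia (1090), endothelial cells (733), pericytes or smooth muscle (365) and ependymal cells (3079). Of the 74 markers, 73 were highest in the class they were meant to mark, which the gate itself favours. Names ending in "-like" rest on markers and not on location.

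Levels are given as CPM, the UMIs of a gene per 1e6 UMIs of that class in that sample. A CPM value depends on how a gene was counted as well as on its RNA, so each gene is compared with itself across classes and the 4 genes are not ranked against each other. The levels below were part of how the genes were proposed, and they are a description without a test. In the order of levels, neighbouring classes are said to be separate where their ranges over the 6 samples do not overlap. The 8146 neurons that were neither GABAergic nor glutamatergic have no place in this order, except those gated as cholinergic. Their levels are not given, so the order does not cover all neurons.

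Promoters were available for 3 of the 4 genes, and the 250 bases before the annotated start are shown because the genes' class patterns differ so widely. They come from RefSeq on GRCm38.p6, 5′ to 3′ on the gene's own strand. Capitals mark GGGCGG or its reverse complement CCGCCC, the core of the GC box. Lrtm1, a gene that lies within Cacna2d3 on the opposite strand, is added because its class pattern resembled that of Cacna2d3, as described further on. The windows are chr5:15934441-15934690 (plus strand) for Cacna2d1, chr9:107399630-107399879 (plus) for Cacna2d2, chr14:29721865-29722114 (minus) for Cacna2d3 and chr14:29017958-29018207 (plus) for Lrtm1.
Cacna2d1: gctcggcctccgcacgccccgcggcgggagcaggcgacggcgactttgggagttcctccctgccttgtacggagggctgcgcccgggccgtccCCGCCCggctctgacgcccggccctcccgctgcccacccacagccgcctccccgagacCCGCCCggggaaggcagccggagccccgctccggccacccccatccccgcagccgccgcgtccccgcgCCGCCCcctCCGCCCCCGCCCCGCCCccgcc
Cacna2d2: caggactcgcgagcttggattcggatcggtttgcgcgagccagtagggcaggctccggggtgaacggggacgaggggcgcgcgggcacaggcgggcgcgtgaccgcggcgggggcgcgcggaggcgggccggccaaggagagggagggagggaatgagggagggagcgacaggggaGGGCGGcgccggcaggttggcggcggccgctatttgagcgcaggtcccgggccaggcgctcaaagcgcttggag
Cacna2d3: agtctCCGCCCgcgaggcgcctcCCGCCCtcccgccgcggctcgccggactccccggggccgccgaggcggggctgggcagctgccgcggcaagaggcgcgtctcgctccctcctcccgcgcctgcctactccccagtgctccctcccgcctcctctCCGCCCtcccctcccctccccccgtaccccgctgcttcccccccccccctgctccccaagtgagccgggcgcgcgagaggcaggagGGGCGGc
Lrtm1: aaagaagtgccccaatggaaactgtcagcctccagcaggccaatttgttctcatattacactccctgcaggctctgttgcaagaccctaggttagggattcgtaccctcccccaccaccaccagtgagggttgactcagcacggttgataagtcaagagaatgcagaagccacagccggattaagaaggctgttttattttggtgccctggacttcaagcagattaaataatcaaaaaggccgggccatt

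The 3 subunit promoters were rich in G and C, at 82.4% for Cacna2d1, 74.4% for Cacna2d2 and 80.0% for Cacna2d3, while that of Lrtm1 held 49.2%. Their CG dinucleotides numbered 36, 34 and 30, against 4 for Lrtm1 and a median of 6 over 32817 windows of the same length. GGGCGG was found on either strand 6 times for Cacna2d1, 1 time for Cacna2d2 and 4 times for Cacna2d3, and 32.7% of all windows held it at least 1 time. At least 4 matches were found in 4.09% of all windows. TATAAA was searched on both strands, was found in none of these 4 windows and occurred in 12.4% of all windows. These matches describe letters in a window and say nothing of which factor binds there.

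Cacna2d1 was highest in glutamatergic neurons, where the 6 samples ran from 1031 to 1253 CPM with a median of 1149. Pericytes or smooth muscle came next, from 390 to 441 CPM with a median of 402, and no sample of these classes overlapped. Medium spiny-like neurons followed at 341 ± 56.0 CPM (SD, n = 6), and lateral septum-like neurons at 289 ± 12.1 CPM, within each other's range. Lateral septum-like neurons lay above the other GABAergic neurons, at 244 ± 17.8 CPM, without overlap, but narrowly. The lowest lateral septum-like sample had 269.5 CPM and the highest sample of the other GABAergic neurons 268.8 CPM. Medial septum-like neurons were the low end among neurons, from 58.6 to 162 CPM with a median of 88.6. Precursors of oligodendrocytes stood at 190 ± 15.5 CPM and were separate from mature oligodendrocytes at 113 ± 9.75 CPM. Astrocytes had the lowest level, at 48.8 ± 6.24 CPM (SD, n = 6), and glutamatergic neurons had 23.6 times as much.

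Cacna2d2 was highest in medial septum-like neurons, from 289 to 431 CPM with a median of 375. Lateral septum-like neurons came second, from 233 to 242 CPM with a median of 236, and their small spread put all 6 samples under the lowest medial septum-like sample. Cholinergic neurons at 199 ± 31.8 CPM and the other GABAergic neurons at 193 ± 5.92 CPM overlapped with their neighbours. A step without overlap then led down to medium spiny-like neurons at 89.0 ± 11.8 CPM and glutamatergic neurons at 87.3 ± 14.2 CPM (SD, n = 6), which overlapped. Every non-neuronal class had a lower mean still. Astrocytes led these at 57.0 ± 2.83 CPM and oligodendrocytes came last at 19.9 ± 4.47 CPM.

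Cacna2d3 was highest in medium spiny-like neurons, which ran from 1614 to 3089 CPM with a median of 2686. Replicate 3 was the low sample, with 14 nuclei of this class and 316 UMIs of the gene. The other GABAergic neurons ran from 485 to 609 CPM, and oligodendrocyte precursors from 353 to 394 CPM with a median of 381 (377 ± 13.8, SD). These 3 classes did not overlap in that order. Below them, glutamatergic neurons varied most, from 44.9 CPM in replicate 3 to 468 CPM in replicate 4 with a median of 190. Medial septum-like neurons stood at 198 ± 51.7, cholinergic neurons at 156 ± 89.5 and lateral septum-like neurons at 142 ± 19.6 CPM, all overlapping with their neighbours. Oligodendrocytes at 53.0 ± 7.81 CPM and astrocytes at 50.6 ± 10.2 CPM (SD, n = 6) were at the bottom and could not be told apart by their ranges.

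Cacna2d4 was rare and had another distribution. Of its 2766 UMIs, 45.9% lay in oligodendrocytes, a class with 5.27% of all UMIs of the kept nuclei. Oligodendrocyte samples ran from 46.9 to 55.4 CPM with a median of 48.2, and no other class exceeded a mean of 3.60 CPM. Cholinergic neurons, astrocytes and glutamatergic neurons, the next in order, overlapped at 3.60, 3.55 and 3.29 CPM, and these rested on 17, 84 and 27 UMIs. In pericytes or smooth muscle, 0 of 365 nuclei had a UMI, at a median depth of 2511 UMIs. That count allows a share of up to 0.822% of nuclei with a UMI, counting error only, and does not limit the share expressing the gene.

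**Figure D1:**
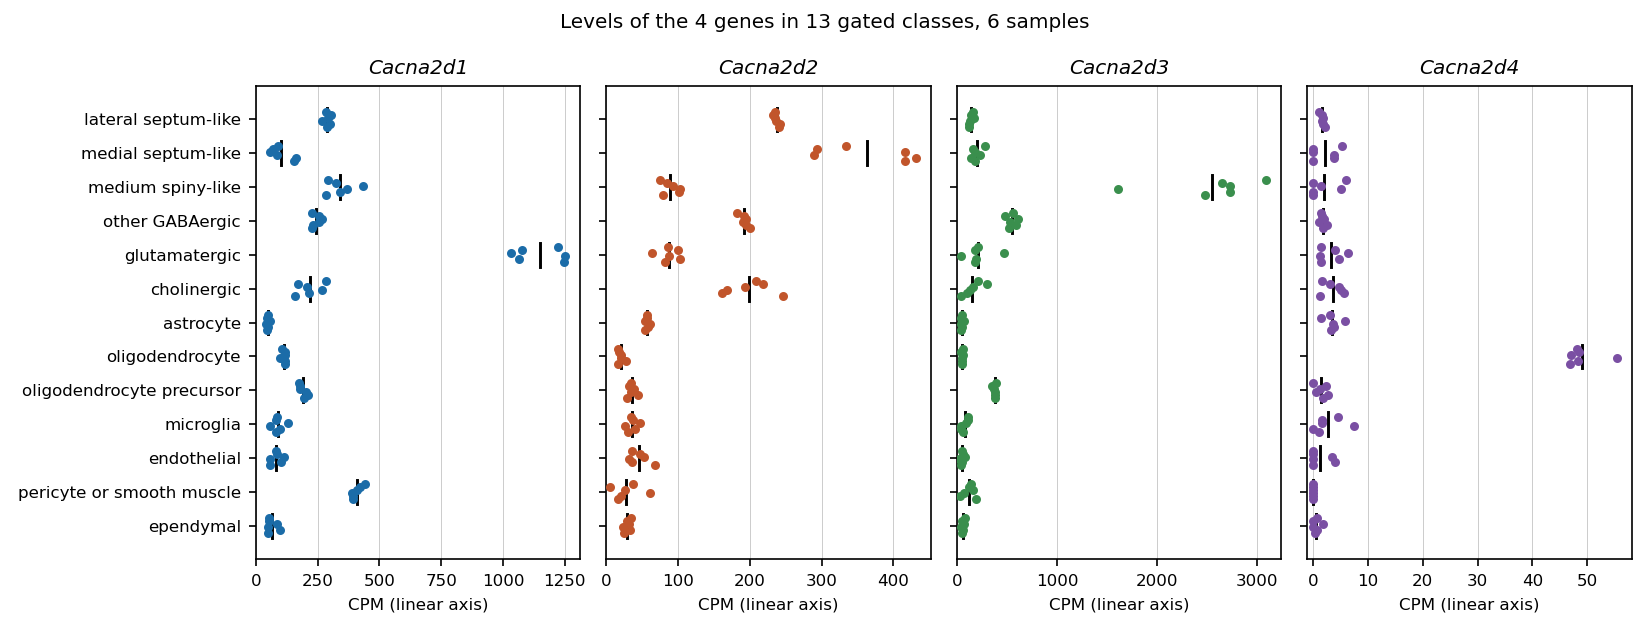
CPM of each gene (linear horizontal axis) in 13 gated classes, with 1 point per sample and a vertical bar at the mean of 6. Cacna2d1 peaked in glutamatergic neurons, Cacna2d2 in medial septum-like neurons, Cacna2d3 in medium spiny-like neurons and Cacna2d4 in oligodendrocytes.

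The share of nuclei with a UMI showed the same peaks after every nucleus was thinned to 2000 UMIs, with shallower nuclei left out. Cacna2d1 was detected in 87.0 ± 2.04% of thinned glutamatergic nuclei (99.4% unthinned), in 39.4 ± 1.61% of lateral septum-like nuclei (84.0%) and in 8.56 ± 1.37% of astrocytes (17.6%). Cacna2d2 was detected in 49.7 ± 11.6% of medial septum-like nuclei (92.1% unthinned), 36.5 ± 0.853% of lateral septum-like nuclei (90.4%) and 3.63 ± 0.618% of oligodendrocytes (7.46%). Cacna2d3 was detected in 92.6 ± 2.22% of medium spiny-like nuclei (95.4%), 49.7 ± 3.18% of oligodendrocyte precursors (81.8%), 13.9 ± 1.48% of lateral septum-like nuclei (31.2%) and 8.89 ± 1.41% of astrocytes (16.6%). Cacna2d4 was detected in 7.98 ± 0.842% of oligodendrocytes (13.9%) and 0.459 ± 0.162% of neurons (2.38%; SD, n = 6). Median depth was 15342 UMIs in lateral septum-like, 17851 in medial septum-like, 12796 in medium spiny-like and 10940 in glutamatergic nuclei, against 6489 in oligodendrocyte precursors, 4376 in astrocytes and 3767 in oligodendrocytes, as means over samples. Too shallow to be thinned were 3 of the 756 glutamatergic nuclei, 145 of the 5147 astrocytes, 13 of the 1470 precursors and 372 of the 6051 oligodendrocytes, and none of the lateral septum-like, medial septum-like or medium spiny-like nuclei. At this thinned depth 48.1% of medium spiny-like nuclei held a UMI of at least 2 of the 4 genes, compared with 23.5% of all neurons and 5.17% of macroglia. Thinned shares of Cacna2d1, Cacna2d2 and Cacna2d3 alone were 46.2, 18.2 and 92.6% in medium spiny-like nuclei. In all neurons they were 39.3, 30.1 and 27.2%. Whether the genes met more often than these single shares give was not tested.

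RNA free in the suspension gives neuronal UMIs in other nuclei, so 4 neuronal genes served as a yardstick. Syt1, Snap25, Snhg11 and Gad2 stood in astrocytes at 7.64 to 11.6% of their level in neurons, and in oligodendrocytes at 9.17 to 13.4%. Cacna2d1 stood at 14.2% in astrocytes, 33.0% in oligodendrocytes and 55.4% in precursors, where the yardstick ran from 6.42 to 28.2%. In pericytes or smooth muscle Cacna2d1 reached 119% of the neuronal level, with a yardstick of 13.4 to 20.6%. Cacna2d2 stood at 28.2% in astrocytes but at 9.86% in oligodendrocytes, within the yardstick's range. Cacna2d3 reached 101% in oligodendrocyte precursors, and 13.6% in astrocytes and 14.2% in oligodendrocytes, just above those ranges. Syt1, Snap25 and Snhg11 are also neuron markers of the gate, which limits them in glia, and the part of free RNA in these levels was not tested.

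Neurons were set beside macroglia, the pool of astrocytes, oligodendrocytes and their precursors. This division into neurons and glia is the one used when the genes were proposed, so it carries no test here. Cacna2d1 stood at 344 ± 12.7 CPM in neurons and 100 ± 5.87 CPM in macroglia, a ratio of 3.42. Cacna2d2 stood at 202 ± 5.10 and 37.4 ± 3.22 CPM, a ratio of 5.39, and Cacna2d3 at 373 ± 56.4 and 107 ± 11.5 CPM, a ratio of 3.48 (SD, n = 6). Cacna2d4 went the other way, at 1.88 ± 0.392 CPM in neurons and 22.7 ± 1.96 CPM in macroglia. Each of these directions was seen in 6 of 6 samples. The edgeR fit called 83.1% of 18484 genes between these pools, 42.3% higher in neurons and 40.7% higher in macroglia, and nothing is read from the 4 genes against it.

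The comparisons within neurons and within glia also used levels that were known when the genes were proposed. For the 4 genes they are therefore given as a description with no test, as the log2 difference and its SE from edgeR's quasi-likelihood fit on summed counts with the sample as block. The shares of all genes called at an adjusted p under 0.05 stand beside them, and nothing is read from the 4 genes against them.

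Glutamatergic neurons had 4.30 times the Cacna2d1 level of GABAergic neurons, 1149 ± 102 against 267 ± 10.8 CPM (SD, n = 6). The GABAergic minus glutamatergic log2 difference was -2.11 ± 0.074 (SE; lower in 6 of 6 samples). Cacna2d2 was higher in GABAergic neurons by 1.30 ± 0.082 (6 of 6 samples), at 217 ± 5.52 against 87.3 ± 14.2 CPM. Cacna2d3 was higher in GABAergic neurons by 0.97 ± 0.22 (5 of 6 samples), at 365 ± 50.2 against 214 ± 138 CPM. This did not hold for each GABAergic class. Lateral septum-like neurons, at 142 CPM, and medial septum-like neurons, at 198 CPM, had means below the glutamatergic mean. The other GABAergic neurons, at 549 CPM, and medium spiny-like neurons, at 2546 CPM, lay above it. Cacna2d4 had a log2 difference of -0.74 ± 0.36, on 27 UMIs in glutamatergic neurons. Of 16687 genes, 30.5% were called, 17.1% higher in GABAergic and 13.4% higher in glutamatergic neurons.

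The Cacna2d3 difference depended on which nuclei were counted. It was 0.47 with a stricter gate and 2.11 without the 10% of nuclei with most UMIs. Nuclei with 2 or more UMIs of Slc17a7, the vesicular glutamate transporter typical of cortex and hippocampus, made up 20.2% of the class in replicate 4 and 5.67 to 10.2% in the other samples, and replicate 4 was also the sample with the highest Cacna2d3. The share with Ebf1, a transcription factor gene, was lowest in that sample too, at 11.9%, and highest in replicate 3 at 37.5%. Without nuclei with a UMI of Slc17a7, mean Cacna2d3 in the class was 114 ± 58.9 CPM (SD, n = 6; 578 nuclei), lower than with them in replicates 1, 4, 5 and 6 and higher in replicates 2 and 3. The log2 difference was then 1.78, an alternative added after these values were seen. The part of the class's makeup in the difference was not tested.

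Within glutamatergic neurons, mean Cacna2d1 lay between 1079 and 1272 CPM on both sides of each of 6 gene splits, while Cacna2d3 varied. Subtype genes were used by comparing nuclei with 2 or more UMIs of the gene and nuclei with 0. Ebf1, Ebf3, Corin and Eomes were chosen after values had been seen. In the 515 nuclei with Ebf3, another transcription factor gene, Cacna2d3 stood at 34.8 ± 25.8 CPM, and in the 211 without it at 471 ± 182 CPM, with no overlap of samples. Ebf1 gave 43.9 ± 14.9 against 278 ± 151 CPM (SD, n = 6), again without overlap. Corin, a membrane protease gene, gave 36.3 ± 28.4 against 373 ± 165 CPM, lower with Corin in 6 of 6 samples but with overlapping ranges, and so did Eomes, at 46.8 ± 67.3 against 278 ± 155 CPM. Cacna2d1 stood at 1202 ± 86.5 CPM with Ebf3 and 1079 ± 222 CPM without it. Nuclei with Slc17a7 had 649 ± 462 CPM of Cacna2d3, more than nuclei without it in 4 of 6 samples of 8 to 17 such nuclei each, and 1144 ± 295 CPM of Cacna2d1.

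Lateral septum-like neurons had more Cacna2d1 than medial septum-like neurons, 289 ± 12.1 against 103 ± 44.0 CPM (SD, n = 6), with a log2 difference of 1.52 ± 0.13 (SE; higher in 6 of 6 samples). Cacna2d2 was lower, with a log2 difference of -0.59 ± 0.092 (6 of 6 samples), and so was Cacna2d3, at -0.45 ± 0.097 (6 of 6 samples). Cacna2d4 had a log2 difference of -0.50 ± 0.65, on 8 UMIs in medial septum-like neurons. Of 14668 genes, 28.5% were called, 15.8% higher in the lateral and 12.7% higher in the medial class. The medial septum-like class had only 16 to 37 nuclei per sample. With nuclei thinned to 2000 UMIs, the difference was -0.44 for Cacna2d2 and -0.048 for Cacna2d3, and it was 1.52 for Cacna2d1.

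Lateral septum-like and medium spiny-like neurons differed most in Cacna2d3. Its level was 17.9 times higher in medium spiny-like neurons, 2546 ± 498 against 142 ± 19.6 CPM (SD, n = 6), with a log2 difference of -4.16 ± 0.11 (SE; lower in lateral septum-like neurons in 6 of 6 samples). With a looser gate that difference was -3.07. Cacna2d2 was lower in medium spiny-like neurons, with a difference of 1.41 ± 0.10 (6 of 6 samples). Cacna2d1 had a difference of -0.23 ± 0.092 (lower in 5 of 6 samples). Cacna2d4 had 6 UMIs in medium spiny-like neurons and a difference of -0.04 ± 0.73. Of 14615 genes, 24.9% were called, 13.7% higher in lateral septum-like and 11.2% higher in medium spiny-like neurons.

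**Figure D2:**
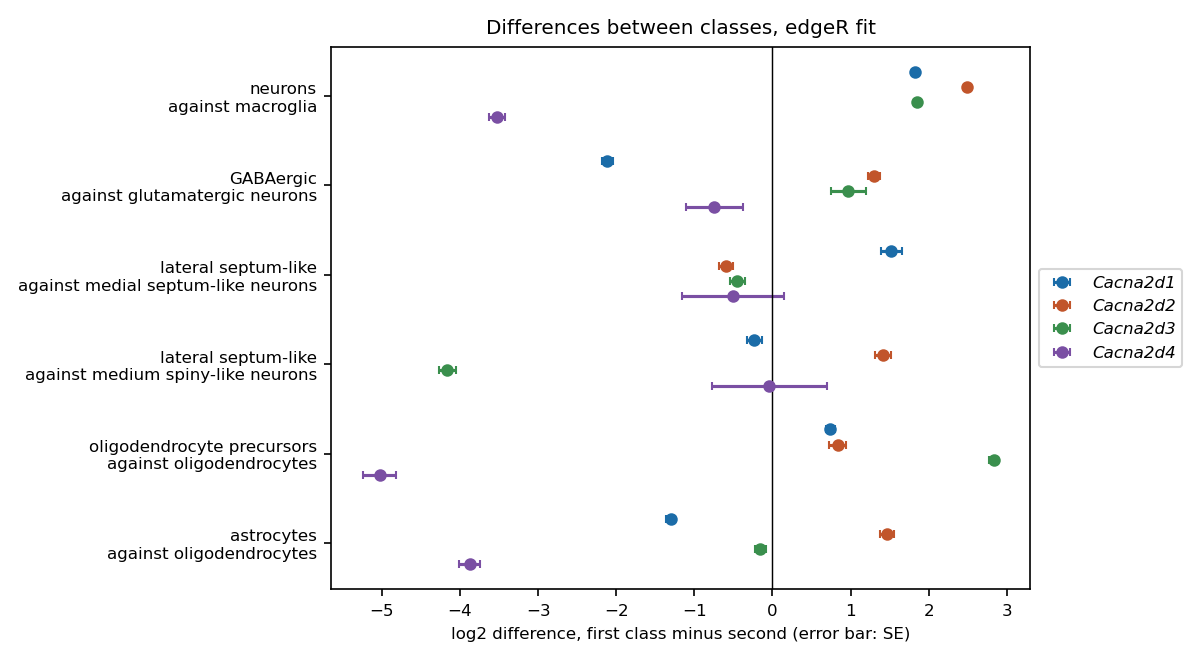
Log2 difference (horizontal axis) between the first and the second class of each of 6 comparisons, with SE bars from edgeR, shown as a description with no test. Cacna2d3 lies far to the left for lateral septum-like against medium spiny-like neurons, at -4.16, and far to the right for precursors against oligodendrocytes, at 2.83.

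Among medium spiny-like neurons Cacna2d3 was high with either dopamine receptor. Nuclei with Drd1, the receptor of the direct pathway, had 3241 ± 991 CPM (44 nuclei), and nuclei with Drd2, the receptor of the indirect pathway, had 2416 ± 565 CPM (74 nuclei), with overlapping ranges. Cacna2d2 stood at 118 ± 23.2 CPM with Drd2 and at 73.4 ± 18.9 CPM without it (SD, n = 6), higher in 5 of 6 samples. With Drd1 it stood at 63.9 ± 19.0 CPM, against 108 ± 26.7 CPM without, lower in 6 of 6 samples, but in both splits the ranges overlapped. The class had 14 to 72 nuclei per sample, so these splits rest on few nuclei in some samples.

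The low mean of Cacna2d3 in lateral septum-like neurons hid a small population with a high level. In the 328 nuclei with Pax6, a transcription factor gene, Cacna2d3 ran from 628 to 985 CPM with a mean of 834 ± 120, and in the 5965 nuclei without Pax6 from 72.4 to 114 CPM with a mean of 90.8 ± 18.1 (SD, n = 6), 9.19 times lower. Eya4, another transcriptional regulator, gave 921 ± 159 against 111 ± 19.8 CPM. The same nuclei were low in Cacna2d1, at 125 ± 26.7 CPM with Pax6 against 302 ± 14.2 CPM without, and somewhat low in Cacna2d2, at 189 ± 8.67 against 242 ± 4.09 CPM. None of these ranges overlapped. Leaving out lateral septum-like nuclei with a UMI of Pax6 or Eya4, an alternative added after the values were seen, put Cacna2d3 at 86.8 ± 16.6 CPM in the remaining 5794 nuclei. The log2 difference from medial septum-like neurons then grew from -0.45 to -1.18 and that from medium spiny-like neurons from -4.16 to -4.88.

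Other lateral septum-like subtypes lay at the low end of Cacna2d3. It stood at 38.9 ± 25.9 CPM in nuclei with Crhr2, a receptor for corticotropin-releasing hormone family peptides, and 158 ± 21.1 CPM in those without. Ano2, a calcium-activated chloride channel gene, gave 69.4 ± 13.3 against 260 ± 37.5 CPM, and Ntf3, a neurotrophin gene, 65.9 ± 21.5 against 167 ± 20.3 CPM (SD, n = 6). With Prlr, Col6a3, Nts and Col25a1 the ratio of means was 0.43, 0.45, 0.42 and 0.47. In each of these 7 splits the ranges did not overlap. Nuclei with Pax6 or Eya4 were not left out of these splits. Without them the class stood at 86.8 ± 16.6 CPM of Cacna2d3. Their part in the levels of the sides without a subtype gene was not tested.

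Cacna2d1 was low with Pax6, as given above, and moved less in the 4 splits that follow. It was highest in nuclei with Drd3, a dopamine receptor gene, at 422 ± 47.4 CPM (230 nuclei) against 281 ± 12.1 CPM without, and in nuclei with Tll1, a protease gene, at 351 ± 28.6 against 278 ± 13.6 CPM. It was lower with Esr1, the estrogen receptor alpha gene, at 231 ± 27.2 against 293 ± 13.1 CPM, and with Prlr, the prolactin receptor gene, at 257 ± 15.1 against 315 ± 12.3 CPM (SD, n = 6). All 4 splits were without overlap. Over the 14 subtype genes, the ratio of means for Cacna2d2 ran only from 0.78 with Pax6 to 1.11 with Drd3.

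**Figure D3:**
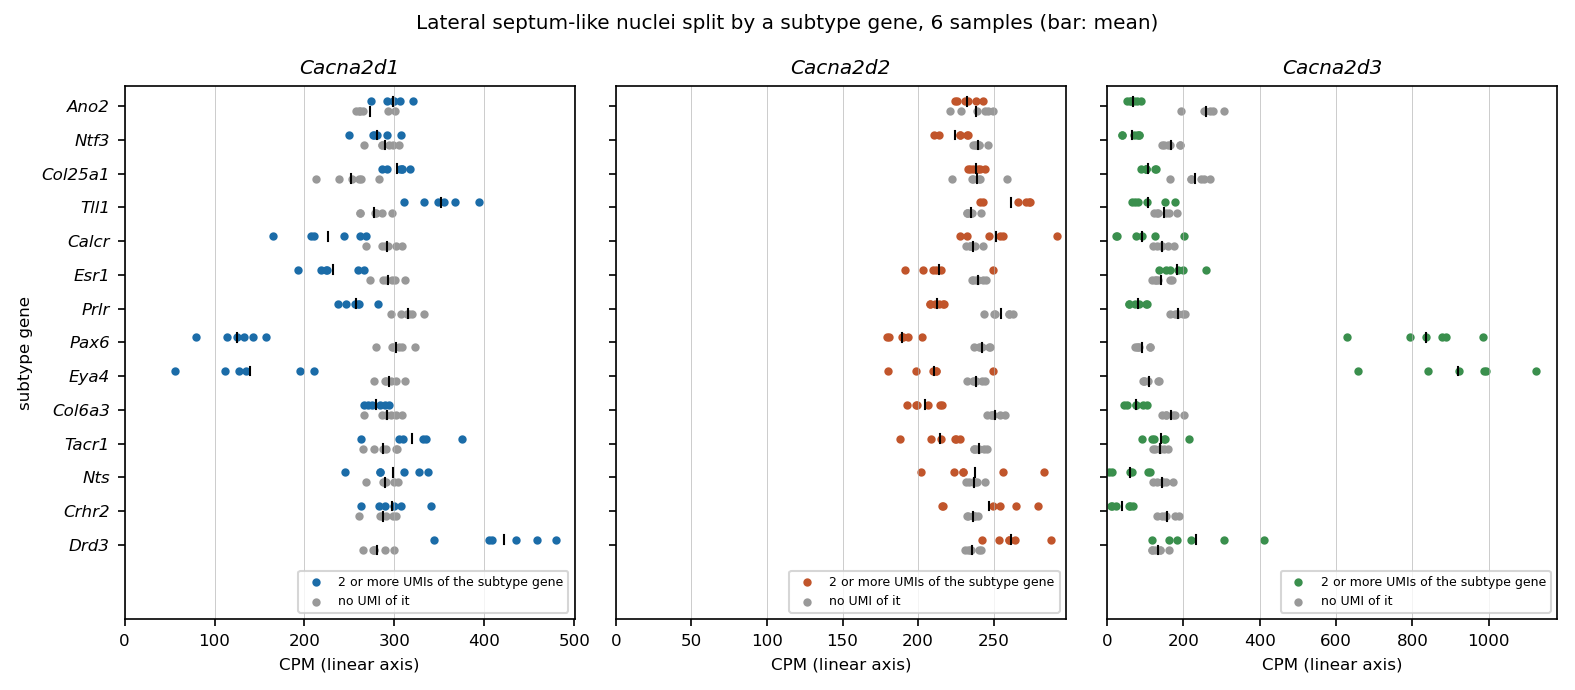
CPM of Cacna2d1, Cacna2d2 and Cacna2d3 (linear horizontal axes) in lateral septum-like nuclei with 2 or more UMIs (colour) or no UMI (grey) of each of 14 subtype genes, with 1 point per sample and a bar at the mean. Cacna2d3 stands apart in nuclei with Pax6 (834 CPM) or Eya4 (921 CPM), where Cacna2d1 is low.

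The 7036 GABAergic neurons outside the 3 named classes held the same contrast, by genes chosen after values had been seen. Cacna2d3 stood at 1172 ± 140 CPM with Pax6 and 483 ± 56.4 CPM without, while Cacna2d1 stood at 105 ± 14.3 against 256 ± 16.9 CPM. With Foxp2, a transcription factor gene, both were high, Cacna2d3 at 1027 ± 96.9 against 373 ± 29.1 CPM and Cacna2d1 at 351 ± 18.4 against 203 ± 18.0 CPM. Tshz1, another transcription factor gene, gave 1141 ± 63.6 against 424 ± 37.9 CPM for Cacna2d3 and 114 ± 11.9 against 210 ± 8.01 CPM for Cacna2d2 (SD, n = 6). No ranges overlapped in these splits. This class was also split by Drd1, Drd2, Drd3, Eya4, Lhx6, Sst and Rgs9, which are not described here. A high Cacna2d3 level thus occurred with a low Cacna2d1 level in nuclei with Pax6 and with a high one in nuclei with Foxp2.

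Cholinergic nuclei were also mixed. Those with Crhr2 (94 nuclei) had 325 ± 65.7 CPM of Cacna2d1, from 265 to 445 CPM, and those without (99 nuclei) had 92.1 ± 33.4 CPM, from 60.8 to 145 CPM, without overlap. Cacna2d3 went the other way, at 42.9 ± 45.1 against 296 ± 183 CPM (SD, n = 6), lower with Crhr2 in 6 of 6 samples but with overlapping ranges. Crhr2 was chosen for this split after values had been seen, and so was Trpc4, whose split is not described here.

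Oligodendrocyte precursors stood above oligodendrocytes in 3 of the 4 genes and below them in Cacna2d4. Cacna2d3 was 7.11 times higher in precursors, 377 ± 13.8 against 53.0 ± 7.81 CPM (SD, n = 6), with a log2 difference of 2.83 ± 0.060 (SE). Cacna2d1 was higher by 0.74 ± 0.059 and Cacna2d2 by 0.83 ± 0.11. Cacna2d2 lay within the range of the neuronal yardstick genes in both classes, at 17.6% of the neuronal level in precursors and 9.86% in oligodendrocytes. The part of free RNA in its difference was not tested. Cacna2d4 was 33.4 times lower in precursors, 1.47 ± 1.04 against 49.0 ± 3.18 CPM, with a log2 difference of -5.03 ± 0.21. Each direction held in 6 of 6 samples. Precursor nuclei held 15 UMIs of Cacna2d4 in all and oligodendrocytes 1270. Of 11809 genes, 65.9% were called, 32.9% higher in precursors and 33% higher in oligodendrocytes.

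Astrocytes had less Cacna2d1 and Cacna2d4 than oligodendrocytes, with log2 differences of -1.30 ± 0.060 and -3.88 ± 0.13 (SE). Cacna2d2 was higher in astrocytes by 1.47 ± 0.086, and each of these directions held in 6 of 6 samples. Cacna2d3 had nearly the same mean in both, 50.6 CPM in astrocytes and 53.0 CPM in oligodendrocytes, and a difference of -0.15 ± 0.066 (lower in 4 of 6 samples). It was -0.30 with a looser gate, -0.060 without the 10% of nuclei with most UMIs, -0.050 after thinning and 0.13 with a stricter gate. Of 13226 genes, 71.3% were called, 36.6% higher in astrocytes and 34.7% higher in oligodendrocytes.

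Cacna2d4 differed among oligodendrocytes, by genes chosen after values had been seen. Nuclei with Opalin, a myelin membrane protein gene, had 58.0 to 69.3 CPM (63.7 ± 5.44; 2790 nuclei), and those without it 19.1 to 34.8 CPM (26.6 ± 6.60; 1800 nuclei). Anln, which encodes the actin-binding protein anillin, gave the reverse, 26.2 ± 4.44 with and 65.2 ± 5.76 CPM without. Hapln2, a link protein gene of nodes of Ranvier, gave 28.7 ± 6.52 with and 59.6 ± 5.25 CPM without (SD, n = 6). Each of these 3 splits was without overlap. Cacna2d1 was nearly level, at 112 ± 7.98 CPM with Opalin and 120 ± 18.5 CPM without.

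**Figure D4:**
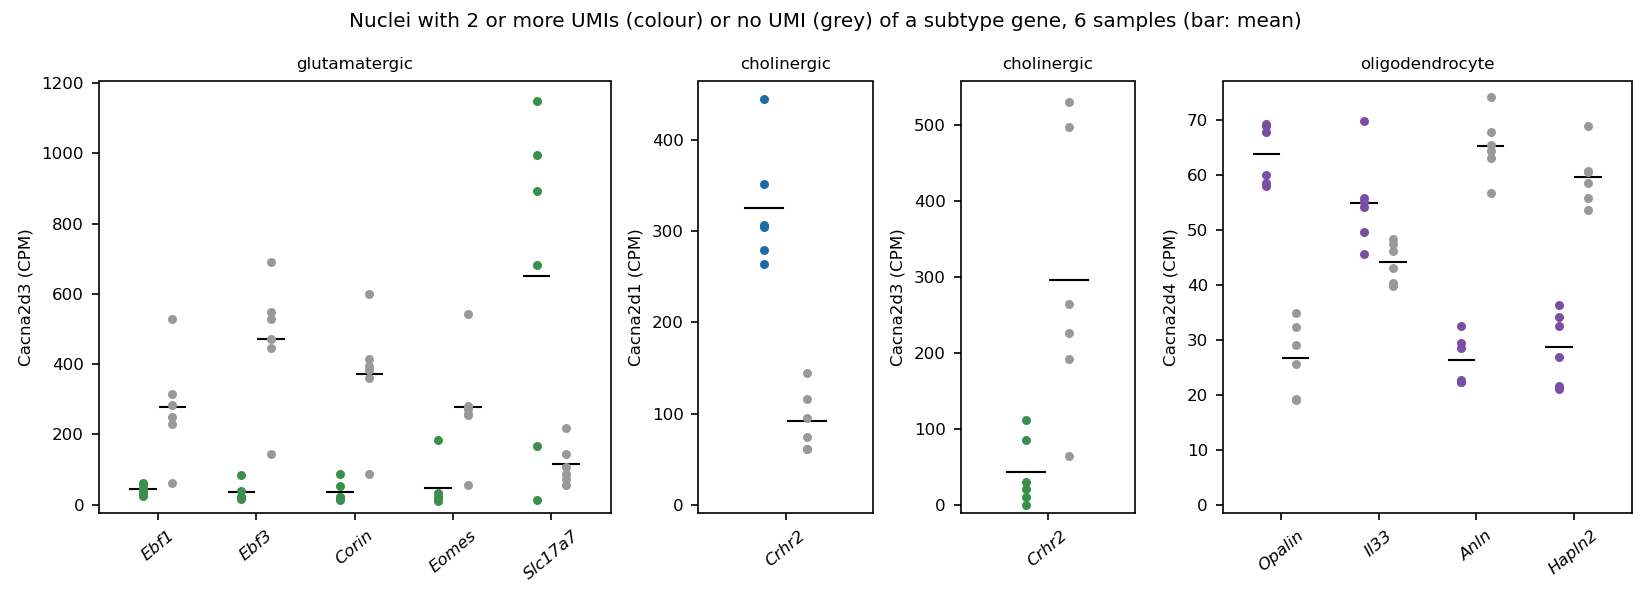
CPM (vertical axes, linear) in nuclei with 2 or more UMIs (colour) or no UMI (grey) of a subtype gene, with 1 point per sample and a bar at the mean. From left to right are Cacna2d3 in glutamatergic neurons, Cacna2d1 and Cacna2d3 in cholinergic nuclei and Cacna2d4 in oligodendrocytes, where nuclei with Opalin (63.7 CPM) lie above those without (26.6 CPM).

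The pore and beta subunit genes of calcium channels were tested in the same fits, with edgeR's quasi-likelihood test and Benjamini-Hochberg adjustment over all tested genes. The pore list is not limited to high-voltage-activated channels and includes T-type genes such as Cacna1i. The channel list was chosen with earlier results of these data known, which limits what its p-values can show. Of 10 pore genes, 9 were tested between neurons and macroglia and all 9 were higher in neurons, as were 4 of 4 beta genes, where 42.3% of all tested genes were higher in neurons. Between GABAergic and glutamatergic neurons, 2 of 9 tested pore genes were higher in each direction, beside 17.1% and 13.4% of all tested genes. Cacna1c, an L-type pore gene, was higher in glutamatergic neurons (861 against 488 CPM), as was Cacna1i, a T-type pore gene (83.0 against 15.2 CPM). Cacna1e, the R-type pore gene, was higher in GABAergic neurons (1015 against 342 CPM), as was the beta subunit gene Cacnb2 (1020 against 455 CPM). Of 4 beta genes, 2 were higher in GABAergic neurons, 1 was higher in glutamatergic neurons and 1 was not called.

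Lateral septum-like neurons were higher than medial septum-like neurons in 3 of 9 tested pore genes and lower in 2, beside 15.8% and 12.7% of all tested genes. Cacna1e stood at 1090 against 264 CPM (log2 difference 2.07 ± 0.098, edgeR adjusted p = 4.08e-19) and the beta subunit gene Cacnb4 at 855 against 308 CPM (1.48 ± 0.084, adjusted p = 6.45e-17). Against medium spiny-like neurons, 5 of 9 tested pore genes stood higher in the lateral septum-like class and 3 lower, and 3 of 4 beta genes were lower, beside 13.7% higher and 11.2% lower over all tested genes. Cacna1c stood at 377 CPM in lateral septum-like and 1062 CPM in medium spiny-like neurons (log2 difference -1.50 ± 0.086, adjusted p = 1.15e-16). The median log2 difference of all tested genes lay within 0.076 of 0 in each comparison.

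In glia, 8 of 8 tested pore genes were higher in oligodendrocyte precursors than in oligodendrocytes, and 3 of 4 beta genes were, beside 32.9% of all tested genes. The exception was Cacnb4, at 265 against 335 CPM. Cacnb4 was also higher in oligodendrocytes than in astrocytes (335 against 61.4 CPM). Of 3 beta genes tested there, 2 were higher in astrocytes and 1 in oligodendrocytes. Of 7 tested pore genes, 2 were higher in astrocytes and 3 in oligodendrocytes. Over all tested genes these shares were 36.6% and 34.7%. Among proteins related to or known to bind alpha2delta, Lrp1, an endocytic receptor gene, stood at 242 CPM in precursors, 178 CPM in astrocytes and 18.5 CPM in oligodendrocytes. Thbs4, a thrombospondin gene, stood at 26.8 CPM in astrocytes and 3.50 CPM in oligodendrocytes. Thbs1 was under 1 CPM in each class compared and was not tested. Cachd1, an alpha2delta-like gene, stood at 107 CPM in lateral septum-like and 11.6 CPM in medial septum-like neurons (log2 difference 3.12 ± 0.20, edgeR adjusted p = 1.74e-15).

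**Figure D5:**
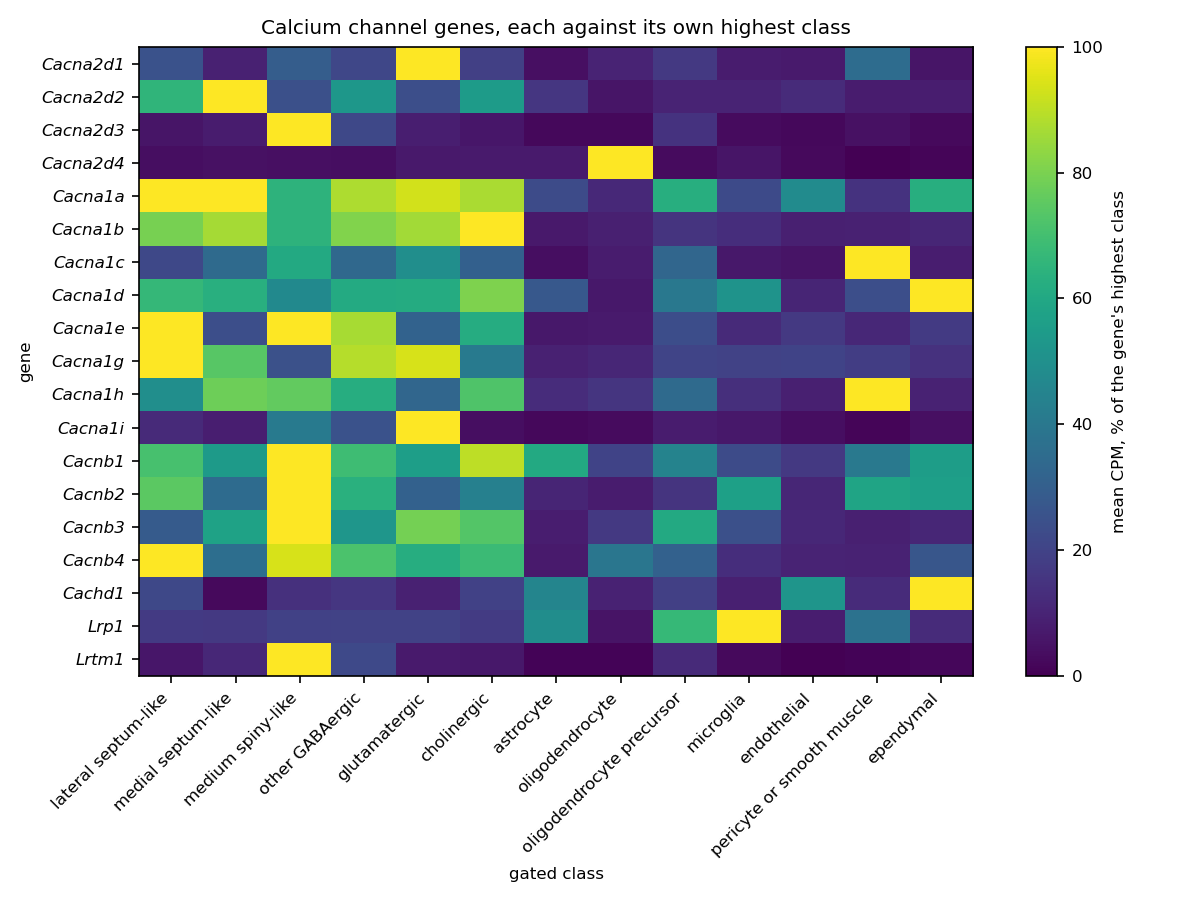
Mean CPM of the 4 alpha2delta genes and 15 related genes in 13 classes, each as a percent of that gene's own highest class (colour scale from 0 to 100). Each of the 4 alpha2delta genes is brightest in another class, and Lrtm1 is brightest where Cacna2d3 is, in medium spiny-like neurons.

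Across the 13 class means of log2(CPM + 1), the highest Pearson r between the 4 genes was 0.56, for Cacna2d1 and Cacna2d3, and Cacna2d4 had r of -0.14 to -0.20 with the others. Of 11005 genes with a mean of no less than 20 CPM in some class, those most like Cacna2d1 were Gm28050 (r = 0.89), Galnt17 (0.88), 2210016L21Rik (0.83), Abi2 (0.82) and Cacna1c (0.82). The genes most like Cacna2d2 were Gm14827, Grip1os1, Gm37814, Grip1os2 and Mblac2, with r of 0.95 to 0.96. For Cacna2d4 they were Nkain1, Bace1, Pak1, Desi1 and Tulp4, with r of 0.93 to 0.96. For Cacna2d3 they were Gm48003 (0.97), Lrtm1 (0.95), Rgs9 (0.94), Gm48006 (0.92) and Gpr149 (0.91), of which Rgs9 is a marker used to gate medium spiny-like neurons. The classes share libraries and differ in depth, so these values are a description.

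In GENCODE M21, 3 of the 5 genes most like Cacna2d3, namely Lrtm1, Gm48003 and Gm48006, overlap it on the opposite strand. The Cacna2d3 gene spans 817 kb of chromosome 14. Lrtm1, a leucine-rich repeat transmembrane protein gene, stood at 205 CPM in medium spiny-like and 12.3 CPM in lateral septum-like neurons, with a log2 difference of -4.11 ± 0.12 (SE), close to the -4.16 of Cacna2d3. The genes were counted separately, with 153015 UMIs of Cacna2d3 and 12776 of Lrtm1 in the kept nuclei. Whether the counting kept the strands apart is not stated in the labels or files. How far reads of Cacna2d3 were counted for these neighbours, or theirs for Cacna2d3, was not tested. Cacna2d4 is overlapped by Lrtm2, which did not exceed a mean of 5.81 CPM in any class and had 1.87 CPM in oligodendrocytes. Gm43000 overlaps Cacna2d1, and Gm17141 and Gm17118 overlap Cacna2d2, each with a highest class mean under 6 CPM.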

How the data were processed

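Raw UMI counts per gene and barcode were used as deposited. According to the submitters' processing notes the authors aligned with STAR in Cell Ranger 3.1.0, while the file headers name 5.0.0. The libraries were 3' v3 droplet libraries, per the labels' protocols. Not given in the sources used here: genome build, strand handling and intron counting, which raises long genes. GENCODE M21 held 32158 of the 32285 identifiers and served for overlaps only.

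Barcodes with no fewer than 500 genes were kept, and no doublet caller was run. A nucleus took the class of a list of 6 markers when at least 3 had a UMI and at least 2 more than in any other list. GABAergic, glutamatergic and cholinergic neurons were gated on transmitter genes. In all, 9921 gated nuclei (24.3%) sat at the threshold of their gate, and 8146 neurons were neither GABAergic nor glutamatergic. Counts were summed per sample and class (no fewer than 10 nuclei) and fitted across all genes with edgeR 4.0.16 (TMM scaling, filterByExpr, quasi-likelihood, sample as block) in R 4.3.3, with calls at an adjusted p of 0.05, which are not used for the 4 genes. The block pairs both classes of 1 library. The procedure was tested on simulated data. DESeq2 1.42.0 was an alternative. Python 3.11.15 with numpy 2.4.6, scipy 1.17.1 and pandas 2.3.3 did the rest. The self-made classes may differ from those of the study.

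Genes named are the 4 members, the channel list, and the 5 genes most like each member. Members, lists and subtype genes were chosen with earlier results of these data known. Barcodes already called as cells were all that was analysed here, so free RNA was read from neuronal genes in glia. UMIs limit precision, and limits from a count of 0 (3 counts) cover counting error only.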

Additional observations from a re-analysis of the deposited data

Results flagged for a closer look

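Cacna2d4 in oligodendrocytes stood at 55.4 CPM in replicate 3 (228 UMIs) and at 46.9 to 48.6 CPM in the other 5 samples. The gap to the nearest sample was 0.80 of the whole range, above Dixon's 95% critical value for 6 samples. It was the only 1 of 52 gene and class groups to be marked this way, and chance marks about 1 in 20.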

How the results depend on the processing

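Values of the 4 genes describe size only. Of 360 of them under the alternatives, 6 changed sign. The number of genes called between GABAergic and glutamatergic neurons was 5090, 3089 with the stricter gate (4 markers, 3 more than any other list) and 2519 after thinning to 2000 UMIs. Thinning also took lateral against medial septum-like neurons from 4177 to 1360 genes (2317 higher and 1860 lower became 956 and 404) and lateral septum-like against medium spiny-like neurons from 3641 to 1390. After thinning, log2 differences between lateral and medial septum-like neurons were -0.44 for Cacna2d2 and -0.048 for Cacna2d3. Cacna2d3 between GABAergic and glutamatergic neurons was 0.47 with the stricter gate, 2.11 without the 10% of nuclei with most UMIs and 0.68 to 1.20 when leaving out 1 sample. Cacna2d1 between lateral septum-like and medium spiny-like neurons was -0.26 with RLE size factors and -0.28 with the looser gate. Without the replicate block, which pairs classes of 1 library, it was -0.25, and Cacna2d3 between astrocytes and oligodendrocytes was -0.14. The latter was -0.17 with DESeq2, -0.050 after thinning, -0.060 without the 10% of nuclei with most UMIs, 0.13 with the stricter gate and -0.21 to -0.12 when leaving out 1 sample. Cacna2d4 changed sign between lateral and medial septum-like neurons without replicate 6 (0.014; range -0.77 to 0.014 over samples left out). Against medium spiny-like neurons it was 0.047 with no filter on low counts, 0.15 with DESeq2, 0.15 without replicate 3 and 1.35 without replicate 6 (range -0.52 to 1.35). The cause of these changes was not tested. The stricter gate left no sample with 10 nuclei of the medial septum-like or medium spiny-like class and was not run there. Depth limits Cacna2d4 outside oligodendrocytes, where a class held 0 to 201 UMIs.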

Other observations

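The 13715 nuclei without a class are in no comparison. They stood at 217 ± 12.4 CPM of Cacna2d1, 107 ± 7.82 CPM of Cacna2d2, 276 ± 39.5 CPM of Cacna2d3 and 7.52 ± 0.453 CPM of Cacna2d4 (SD, n = 6), between neurons and macroglia for all 4 genes, at a median of 4040 UMIs per nucleus.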
